A study of Mus musculus with 6 samples.

Results

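Genes that start, restrain and dissolve a blood clot were followed in lung tissue after hemorrhagic shock (HS). The 9 genes, chosen by symbol from the 54532 genes of the deposited read counts, were *F3*, *Tfpi*, *Thbd*, *Procr*, *Vwf*, *F13a1*, *Plat*, *Plau* and *Plaur*, and all 9 had enough reads to be tested. The lungs came from 3 GRdim/dim mice, in which a point mutation impairs dimerization of the glucocorticoid receptor (GR), and from 3 GR+/+ littermates on the same mixed 129/SvEv x C57BL/6 background. The mutation is carried in the germline, so it was present in every cell type of the lung and in all other organs. All mice were 10 to 16 weeks old and were anesthetized and ventilated, and blood was withdrawn until the mean arterial pressure reached 35 mmHg, where it was held for 1 h of HS. The shed blood was kept fluid with citrate and given back, and resuscitation with colloid and norepinephrine lasted 4 h. The GR+/+ lungs were from 2 female mice and 1 male mouse, the GRdim/dim lungs from 1 female mouse and 2 male mice. Lungs without HS were not analysed here, so every comparison is between genotypes after shock.

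The libraries held 15687734 to 32082940 counts each. The type 2 cell gene *Sftpc* was at 9270 CPM or more in every library, and all 15 endothelial markers passed the filter on low counts. CPM are counts per 1000000 of the library total after TMM scaling, which adjusts the totals for differences in composition between libraries. GR+/+ replicate 3 stood apart in transcripts made mainly by hepatocytes, with 58.2 CPM summed over 6 such genes (1833 counts, 1495 of them *Alb*) against 1.02 to 4.98 CPM in the other libraries. It also had the lowest summed level of smooth muscle markers, 250.8 CPM against 459.6 to 633.9 CPM elsewhere. The genotypes rest on the labels here, because the number of reads per gene does not show a point mutation. The study reported lower levels of GR target genes, such as *Tsc22d3*, *Fkbp5* and *Klf9*, in these GRdim/dim lungs.

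Clotting starts when blood meets tissue factor, the product of *F3*, which binds factor VII and leads to thrombin and fibrin. Endothelial cells hold this in check with tissue factor pathway inhibitor (*Tfpi*) and with thrombomodulin (*Thbd*) and the endothelial protein C receptor (*Procr*), which turn thrombin towards the activation of protein C. Fibrin is later dissolved by plasmin, which is made from plasminogen by the tissue-type (*Plat*) and the urokinase-type activator (*Plau*), and the lung is known as a tissue rich in both tissue factor and fibrinolytic activity.

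Promoter sequences are shown for *F3* and *Plaur*, the only members with an unadjusted *p*-value under 0.05 below. They are the 250 bases before the transcription start of RefSeq on GRCm38.p6, for *F3* at chr3:121723287-121723536 and for *Plaur* at chr7:24462233-24462482, both on the plus strand. Capitals mark AP-1 sites (TGANTCA, its own reverse complement) and GC boxes (GGGCGG or CCGCCC).
F3: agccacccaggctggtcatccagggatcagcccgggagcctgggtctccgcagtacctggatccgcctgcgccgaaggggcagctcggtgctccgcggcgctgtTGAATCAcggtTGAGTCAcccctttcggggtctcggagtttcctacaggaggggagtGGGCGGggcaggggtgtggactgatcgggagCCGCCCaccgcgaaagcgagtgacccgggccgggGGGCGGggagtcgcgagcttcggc
Plaur: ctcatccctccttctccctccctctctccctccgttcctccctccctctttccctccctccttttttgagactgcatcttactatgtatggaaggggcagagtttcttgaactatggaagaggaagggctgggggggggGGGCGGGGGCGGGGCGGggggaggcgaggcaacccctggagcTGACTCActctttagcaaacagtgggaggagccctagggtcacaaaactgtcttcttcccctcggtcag
The *F3* window held 2 AP-1 sites, 146 and 135 bases before the start, and 3 GC boxes. The *Plaur* window held 1 AP-1 site at 69 bases and 3 adjoining GC boxes, of which the last 2 share a base. Such matches were also found for members with smaller differences, an AP-1 site for *Procr* at 154 bases and a GC box in each of 2 windows for *Tfpi*, at 41 and 159 bases. Over 32526 different windows of this length, 6.73% held the AP-1 letters and 33% a GC box. The core of a GR response element, AGAACA or TGTTCT, was in 16% of all windows and an NF-kB-type motif (GGG and TTTCC with any 2 bases between, on both strands) in 1.4%. No exact match to either of these motifs was in the windows of *F3* or *Plaur*. The same held for *Procr*, *Tfpi* and *F13a1*, the other members with a window in the table. Near matches were not counted, such as CGGAGTTTCC in the *F3* window, which differs from the NF-kB-type motif in its first letter. No window was found for *Thbd*, *Vwf*, *Plat* and *Plau*. A match is a match of letters and was not tested for binding.

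Per length, *Thbd* had the highest level of the 9 genes and *Tfpi* the lowest. The scale is RPKM, the CPM divided by the exonic length of the gene in kilobases. *Thbd*, a gene of 1 exon on chromosome 2 (148404466 to 148408188, minus strand), had a mean of 144.5 ± 38.8 RPKM (SD, n = 6 libraries). *F3* followed with 81.8 ± 26.3 RPKM, *Plaur* with 52.6 ± 20.8 RPKM and *Vwf* with 42.1 ± 8.22 RPKM. *Plau* had 15.5 ± 5.89 RPKM and *Plat* 10.04 ± 1.95 RPKM. *Procr* (9.19 ± 2.69 RPKM), *F13a1* (8.70 ± 3.58 RPKM) and *Tfpi* (6.93 ± 0.655 RPKM) came last. Of the 8 pairs of neighbours in this order, the level differed by more than the SD of the log2 ratio between libraries in 2, *Thbd* over *F3* (0.85 ± 0.82 on the log2 scale) and *Vwf* over *Plau* (1.57 ± 0.97). The others did not differ beyond their spread, and *Procr* was above *F13a1* in 3 of 6 libraries. With the longest transcript in place of all exonic bases, *Vwf* (76.7 RPKM) was ahead of *Plaur* (68.6 RPKM) and *F13a1* (14.8 RPKM) ahead of *Procr* (11.6 RPKM).

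**Figure D1:**
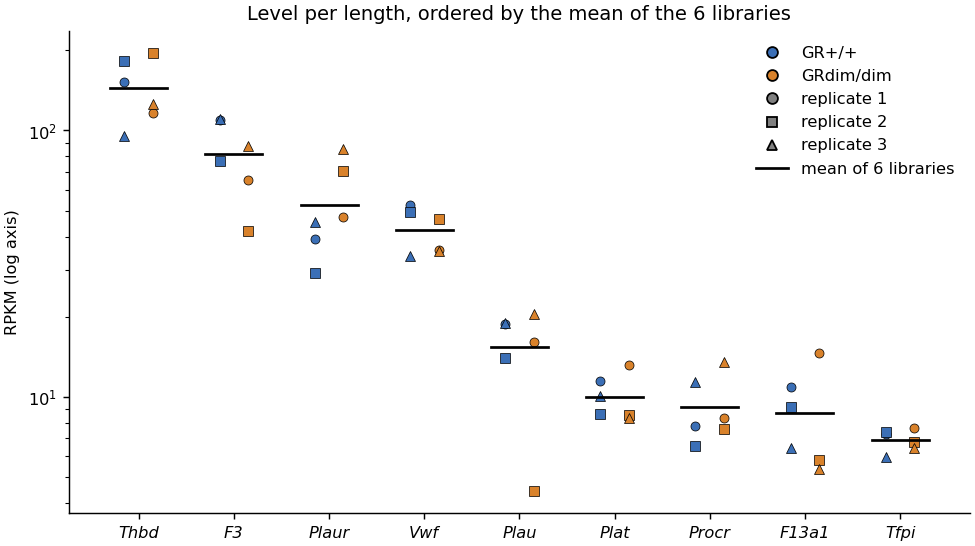
Level per length in RPKM (log axis) of the 9 genes, with 1 point per library coloured by genotype and shaped by replicate, and the mean of 6 libraries as a line. *Thbd* lies highest at a mean of 144.5 RPKM and *Tfpi* lowest at 6.93 RPKM, and the single low point of *Plau* is GRdim/dim replicate 2.

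None of the 9 genes passed as differentially expressed (DEG, adjusted *p*-value under 0.05 and log2 fold change beyond 0.5) in edgeR's quasi-likelihood test, in which 0.169% of the 16568 genes tested passed (0.0724% with higher and 0.0966% with lower levels in GRdim/dim lungs). DESeq2 called 0 of the 9 as well, with 1.71% of its genes called. Before adjustment, 2 of the 9 had a *p*-value under 0.05 by either tool, against 9.6% of all genes in edgeR and 10.2% in DESeq2. These were *Plaur* with higher levels in GRdim/dim lungs, as for 4.91% of all genes in edgeR, and *F3* with lower levels, as for 4.68%. GR+/+ and GRdim/dim libraries were fully separated for 1 of the 9, *Plaur*, against 14.8% of all genes (7.77% higher and 7.05% lower in GRdim/dim lungs). Over the 9 genes the log2 fold changes had a median of 0.00, and over all genes tested one of 0.01. The genes varied between mice of one genotype with coefficients of variation from 9.28% (*Tfpi*, GRdim/dim) to 60.8% (*Plau*, GRdim/dim). The fewest reads of any of the 9 in a library were 221, where counting alone gives an error of 6.73%. A change beyond 2-fold lay outside the 95% interval for 6 of the 9 genes, but inside it for *F3*, *Plau* and *Plaur*. All log2 fold changes below are GRdim/dim against GR+/+.

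**Figure D2:**
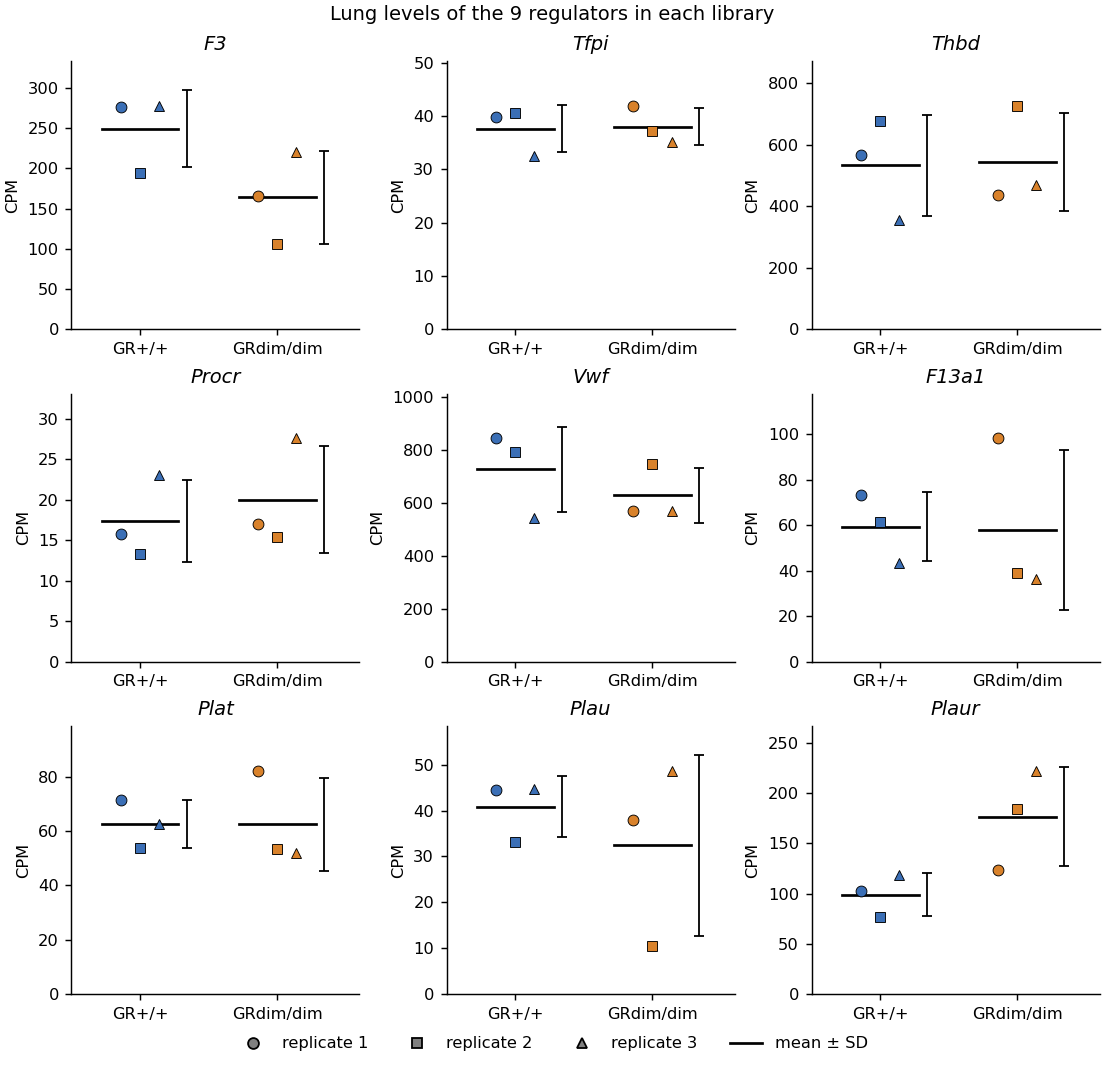
CPM of each of the 9 genes (axes from 0) in 3 GR+/+ and 3 GRdim/dim libraries, with points for libraries, a line for the mean and a bar for the SD. The points of *Plaur* separate by genotype, from 76.2 to 118.3 CPM and from 123.6 to 222.1 CPM, while those of the other genes overlap.

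*F3*, which encodes tissue factor (chromosome 3 from 121723537 to 121735048, plus strand), was at 276, 195 and 278 CPM in GR+/+ replicates 1, 2 and 3 and at 165, 106 and 221 CPM in GRdim/dim replicates 1, 2 and 3. The lowest 2 values were GRdim/dim, but GRdim/dim replicate 3 lay above GR+/+ replicate 2, so the groups overlapped. The means of 3 lungs were 249.5 ± 47.5 CPM in GR+/+ and 164 ± 57.6 CPM in GRdim/dim (SD). GRdim/dim lungs thus had a log2 fold change of -0.61 (standard error, SE, 0.26, 95% interval -1.19 to -0.02), for which edgeR gave unadjusted *p* = 0.0433 and adjusted *p* = 0.499. Without GRdim/dim replicate 2 the log2 fold change was -0.37 (unadjusted *p* = 0.165 from edgeR), and the unadjusted *p* stayed under 0.05 in 2 of the 6 fits that left out a library. An exact permutation test of the log2 CPM gave *p* = 0.2, where 0.1 is the smallest that 3 lungs against 3 allow.

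*Tfpi*, the Kunitz-type inhibitor of tissue factor with factor VIIa (chromosome 2 from 84432855 to 84476775, minus strand), differed least between mice. Its levels were 39.8, 40.5 and 32.6 CPM in GR+/+ and 41.9, 37.1 and 35.1 CPM in GRdim/dim replicates 1 to 3. The highest library was 1.29 times the lowest. Its log2 fold change was 0.02 (SE 0.18, 95% interval -0.38 to 0.41, adjusted *p* = 0.987 from edgeR), so that a fold difference outside 0.770 to 1.33 lay beyond the interval. The ratio of *F3* to *Tfpi* on the RPKM scale was 15, 10.4 and 18.5 in GR+/+ and 8.53, 6.15 and 13.6 in GRdim/dim libraries, and the groups overlapped.

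*Thbd*, the thrombin receptor that starts the protein C pathway, had 566, 676 and 355 CPM in GR+/+ and 434.5, 726 and 470 CPM in GRdim/dim libraries. The highest and the lowest library belonged to different genotypes, and the means were 532 ± 164 CPM and 543.5 ± 159 CPM (SD, n = 3 each). The log2 fold change was 0.03 (SE 0.28, 95% interval -0.59 to 0.65, adjusted *p* = 0.984 from edgeR). *Procr*, which holds protein C at the endothelial surface (chromosome 2 from 155751117 to 155755471), had 15.8, 13.2 and 23.0 CPM in GR+/+ and 17.0, 15.4 and 27.6 CPM in GRdim/dim libraries. Its log2 fold change was 0.20 (SE 0.29, 95% interval -0.44 to 0.84, adjusted *p* = 0.904 from edgeR). In each genotype, replicate 2 had the lowest *Procr* and the highest *Thbd* level, and the ratio of *Thbd* to *Procr* ranged from 8.40 to 27.8 on the RPKM scale, with overlapping groups.

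*Vwf* encodes von Willebrand factor, which tethers platelets and carries factor VIII, and lies on chromosome 6 (125546774 to 125686679, plus strand). It was at 844, 791 and 543 CPM in GR+/+ and at 570, 747 and 567 CPM in GRdim/dim libraries. The groups overlapped, and the log2 fold change was -0.21 (SE 0.22, 95% interval -0.71 to 0.29, adjusted *p* = 0.841 from edgeR). *F13a1*, the catalytic subunit of the fibrin-crosslinking factor XIII, which monocytes and macrophages make (chromosome 13 from 36867178 to 37050244, minus strand), had 73.3, 61.6 and 43.3 CPM in GR+/+ and 98.2, 39.1 and 36.2 CPM in GRdim/dim libraries. GRdim/dim replicate 1 was the highest of all and the other GRdim/dim libraries were the lowest of all. Over all libraries its log2 fold change was -0.04 (SE 0.37, 95% interval -0.85 to 0.78, adjusted *p* = 0.986 from edgeR). Without GRdim/dim replicate 1 it was -0.65, for which edgeR gave unadjusted *p* = 0.0243 and adjusted *p* = 0.441. Exons of an antisense gene, *Gm30489*, cover 74 bases of *F13a1*, and the use of strand in counting is not given in the sources used here.

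*Plat*, the tissue-type plasminogen activator released by endothelium (chromosome 8 from 22757727 to 22782844, plus strand), had nearly the same mean in both genotypes, 62.7 ± 8.79 CPM in GR+/+ and 62.6 ± 17.1 CPM in GRdim/dim lungs (SD, n = 3 each). Its single values were 71.5, 53.9 and 62.8 CPM in GR+/+ and 82.3, 53.5 and 52.0 CPM in GRdim/dim libraries. Between genotypes the log2 fold change was 0.00 (SE 0.21, 95% interval -0.48 to 0.47, adjusted *p* = 0.999 from edgeR).

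*Plau*, the urokinase-type activator (chromosome 14 from 20836660 to 20843385, plus strand), stood at 44.6, 33.2 and 44.8 CPM in GR+/+ and at 38.0, 10.5 and 48.7 CPM in GRdim/dim libraries. GRdim/dim replicate 2 was far below all the others, and GRdim/dim replicate 3 was the highest. Its log2 fold change was -0.34 (SE 0.44, 95% interval -1.33 to 0.66, adjusted *p* = 0.884 from edgeR). This estimate rested on 1 library, since it was 0.09 without GRdim/dim replicate 2. With a covariate for sex-linked expression it was -1.03 (unadjusted *p* = 0.0327 and adjusted *p* = 0.569 in edgeR). In the library with the lowest *Plau* level, *F3* was also at its lowest and *Thbd* at its highest level.

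*Plaur*, the receptor that holds urokinase at the cell surface (chromosome 7 from 24462484 to 24475968, plus strand), had the largest genotype difference of the 9 in the fit without covariates. With a covariate for sex-linked expression, in groups with unequal numbers of each sex, those of *Plau* (-1.03) and *F3* (-0.87) were larger than that of *Plaur* (0.84). Its levels were 102.5, 76.2 and 118.3 CPM in GR+/+ and 123.6, 184 and 222 CPM in GRdim/dim libraries. Every GRdim/dim library lay above every GR+/+ library, but the nearest values of the groups differed by little. The means were 99.0 ± 21.3 CPM and 177 ± 49.6 CPM (SD, n = 3 each). This was a log2 fold change of 0.83 (SE 0.24, 95% interval 0.30 to 1.37, or 1.23-fold to 2.58-fold), for which edgeR gave unadjusted *p* = 0.00577 and adjusted *p* = 0.297. By *p*-value *Plaur* ranked 320 of 16568 genes. DESeq2 gave unadjusted *p* = 0.00160 and adjusted *p* = 0.0754. An exact permutation test of the log2 CPM could not go below 0.1 and gave this value. With any library left out the estimate lay between 0.64 and 1.04, and the unadjusted *p* stayed under 0.05 in all 6 of these fits. *Plaur* passed as a DEG in 1 alternative, the edgeR fit of all 31368 genes with reads in place of those past the low-count filter (adjusted *p* = 0.00508), with adjusted *p*-values from 0.00508 to 0.556 over all alternatives.

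The ratio of *Plau* to *Plaur*, the ligand and its receptor, was on the RPKM scale 0.481, 0.481 and 0.418 in GR+/+ and 0.340, 0.0632 and 0.242 in GRdim/dim libraries. The groups did not overlap, and the means were 0.460 ± 0.0362 and 0.215 ± 0.140 (SD, n = 3 each). The ratio was formed after the values of both genes had been seen and was not tested. The ratio of *Plat* to *Plau* was between 0.532 and 0.617 in GR+/+ and between 0.405 and 1.93 in GRdim/dim libraries, with overlapping groups.

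**Figure D3:**
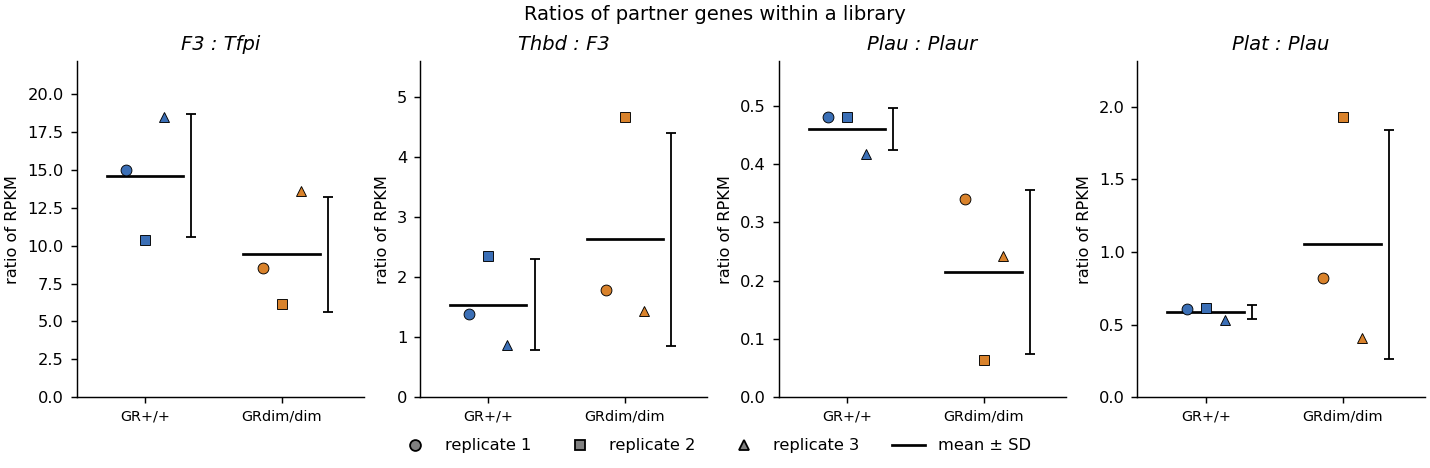
Ratio of RPKM between partner genes in each library (axes from 0), with points for libraries, a line for the mean and a bar for the SD. For *Plau* to *Plaur* the GR+/+ libraries lie at 0.418 or above and the GRdim/dim libraries at 0.340 or below, and the other ratios overlap.

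Levels of the cells that make these proteins were read from marker genes. In bulk tissue, fewer cells of a type and less RNA per cell cannot be told apart. The summed endothelial level was 4544 to 6652 CPM in GR+/+ and 4859 to 5517 CPM in GRdim/dim lungs, with 0 DEGs in edgeR and 1, *Cldn5* (log2 fold change 0.93, adjusted *p* = 0.0338), in DESeq2. Before adjustment, edgeR gave *p*-values under 0.05 for 4 of the 15 markers, *Cldn5* with higher and *Kdr*, *Sox17* and *Ramp2* with lower levels in GRdim/dim lungs, and 11 of 15 estimates were below 0 (median -0.19). Relative to this sum, of which the 9 genes are not a part, *Thbd* was at 7.80% to 10.2% in GR+/+ and 8.82% to 13.2% in GRdim/dim libraries. *Vwf* was at 11.9% to 14.8% and 10.7% to 13.5%, and both genes overlapped between genotypes on this scale as well. *Plaur* relative to the endothelial sum overlapped by a small margin, with 1.15% to 2.60% in GR+/+ and 2.54% to 4.17% in GRdim/dim libraries.

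Neutrophils and monocytes carry the urokinase receptor. Of 11 neutrophil markers, 9 were tested, and 3 (*S100a9*, *Retnlg* and *Ngp*) had higher levels in GRdim/dim lungs with an unadjusted *p*-value under 0.05 in edgeR. None was a DEG in edgeR, while DESeq2 called *Ngp* (log2 fold change 2.73, adjusted *p* = 3.67e-05) and *Retnlg* (1.09, adjusted *p* = 0.0284). The median log2 fold change of the 9 was 0.85 in edgeR. The summed level of all 11 listed was 281 to 546 CPM in GR+/+ and 384 to 1175 CPM in GRdim/dim lungs. The highest sum was in GRdim/dim replicate 1, which had the lowest *Plaur* level of its genotype, and without this library the log2 fold change of *Plaur* was 1.04 (adjusted *p* = 0.178 from edgeR). Monocyte and macrophage markers summed to 3143 to 3751 CPM and 3653 to 4571 CPM, and 2 of the 14 tested had an unadjusted *p*-value under 0.05, both higher in GRdim/dim lungs. Most of this sum was *Lyz2*, at 2412 to 3176 CPM in GR+/+ and 2807 to 2953 CPM in GRdim/dim lungs. Values relative to this sum were thus mostly relative to that gene. Relative to the monocyte and macrophage sum, *Plaur* was at 2.42% to 3.15% in GR+/+ and 2.70% to 6.08% in GRdim/dim libraries, with overlap. Relative to the neutrophil sum it was at 18.8% to 42.1% and 10.5% to 47.9%, also with overlap. The groups separated for *F3* relative to the monocyte and macrophage sum (6.20% to 8.02% and 2.81% to 6.05%) and the neutrophil sum (50.5% to 98.9% and 14.1% to 43.5%). They also separated for *F13a1* relative to the neutrophil sum (13.4% to 17.5% and 7.12% to 10.2%). In CPM both genes overlapped between genotypes, while the neutrophil sum itself reached higher levels in GRdim/dim lungs. How often genes at large separate on these scales was not examined. All other ratios of the 9 genes to the endothelial, neutrophil, monocyte and macrophage, or platelet sums overlapped, and none was tested. *F13a1* and the monocyte and macrophage sum were both highest in GRdim/dim replicate 1. In that library *Lyve1*, a part of this sum, was at 1154 CPM, against 278 to 493 CPM in the others. Platelet markers summed to 40.0 to 66.5 CPM and 44.1 to 58.7 CPM, with *Gp1bb* at 0 in every library. Alveolar epithelial markers, of cells that express tissue factor, summed to 18600 to 27550 CPM and 18240 to 28450 CPM. What part these cells have in the levels of the 9 genes was not tested.

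**Figure D4:**
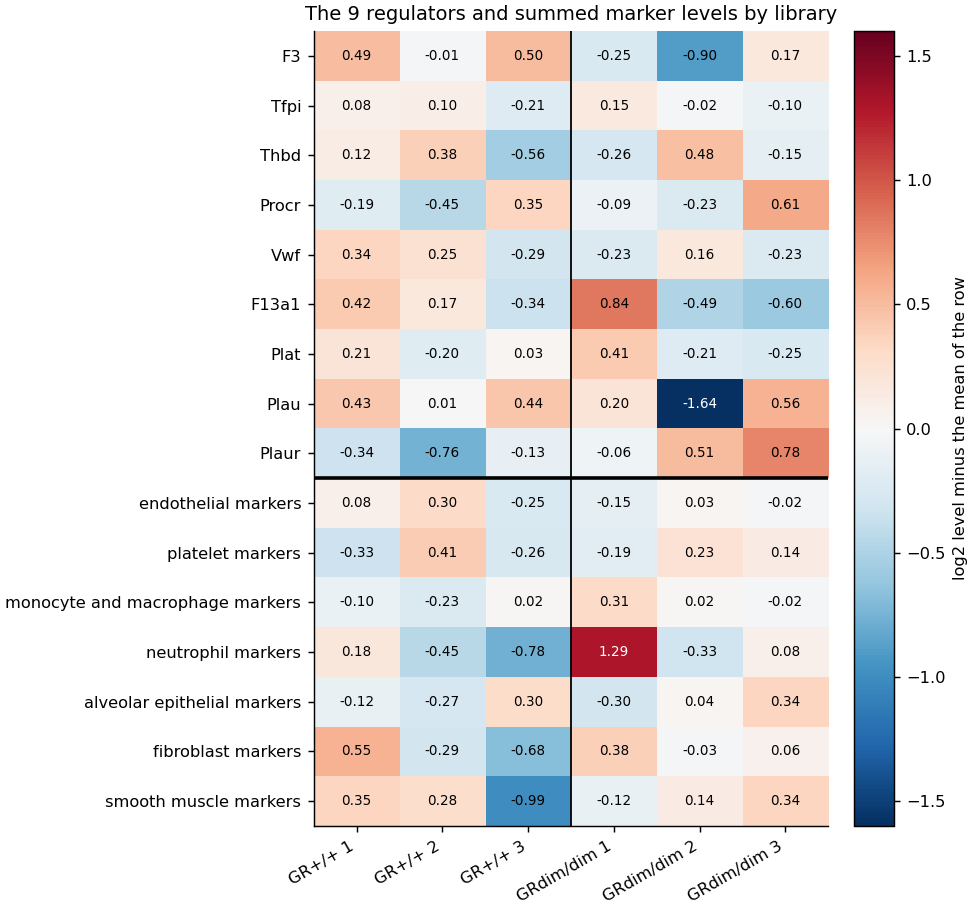
Log2 level minus the mean of its row for the 9 genes (above the line) and for the summed markers of 7 cell types (below) in the 6 libraries, in blue for low and red for high. *Plau* in GRdim/dim replicate 2 (-1.64) is the lowest cell and the neutrophil sum of GRdim/dim replicate 1 (1.29) the highest.

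Other genes of the system were compared by role from a list of 42 further genes, of which 30 had enough reads to be tested. None was a DEG with edgeR or DESeq2, and 3 of the 30 (10%) had an unadjusted *p*-value under 0.05 with either tool, against 9.6% of all genes in edgeR. *F7*, the ligand of tissue factor, was at 9.17 to 11.9 CPM in GR+/+ and 6.31 to 7.77 CPM in GRdim/dim libraries, or -0.64 on the log2 scale (SE 0.24, unadjusted *p* = 0.0250 and adjusted *p* = 0.443 in edgeR). *Tfpi2*, a relative of *Tfpi* that inhibits plasmin, was at 1.37 to 2.81 CPM and 2.83 to 8.52 CPM, or 1.25 on the log2 scale (SE 0.46, unadjusted *p* = 0.0216 and adjusted *p* = 0.432 in edgeR). *Proz*, a cofactor in the inhibition of factor Xa, was at 4.36 to 8.99 CPM and 3.505 to 4.86 CPM, with overlapping groups. It had a log2 fold change of -0.85 (SE 0.34, unadjusted *p* = 0.0296 and adjusted *p* = 0.459 in edgeR).

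Of 6 inhibitors of fibrinolysis 4 were tested, and *Serpine2*, which inhibits thrombin and urokinase, had the highest level per length among them (11.3 ± 0.597 RPKM, SD, n = 6 libraries). In the other groups the highest levels per length were those of *F3*, *Vwf*, *Anxa5* (262.5 RPKM), *Anxa2* (128 RPKM), *F2r* (91.0 RPKM) and *Ggcx* (17.3 RPKM), the last 4 with log2 fold changes of 0.28, -0.04, -0.26 and -0.31 and adjusted *p*-values of at least 0.696 from edgeR.

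**Figure D5:**
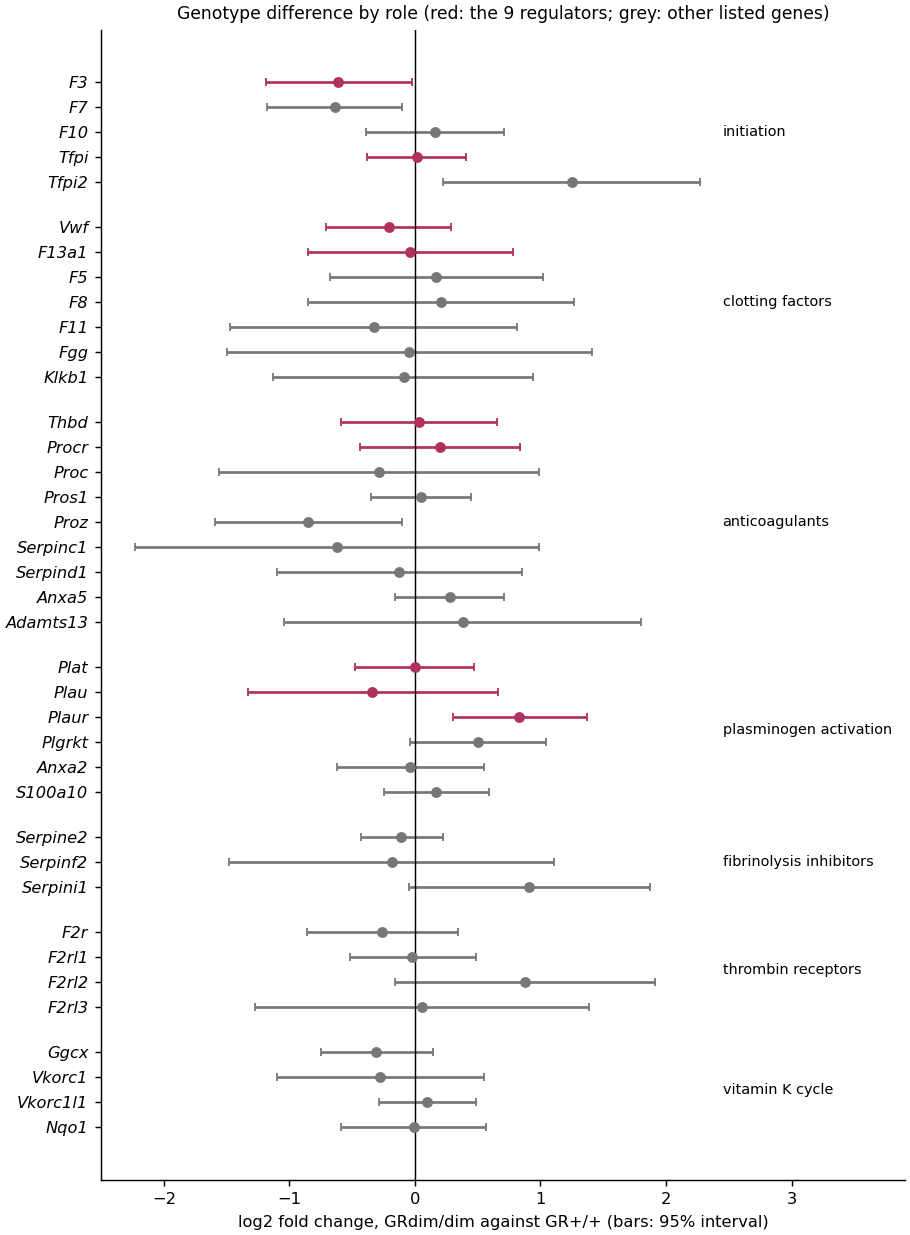
Log2 fold change of GRdim/dim against GR+/+ lungs with its 95% interval for the 9 genes (red) and the other listed genes that were tested (grey, 1 of the 30 not shown), ordered by role. The intervals of *F3*, *F7*, *Proz*, *Plaur* and *Tfpi2* leave out 0, and none of these genes passed after adjustment.

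The genes whose pattern over the 6 libraries was most like that of *F3* were *Rin1*, *Rd3* and *Mrgpre*. They lay at a root mean square difference of 0.11, 0.12 and 0.13 in centred log2 CPM, where the median over all genes tested was 0.56. For *Plaur* they were *Mucl3*, *Rps6-ps4* and *Tubb2b*, at 0.11, 0.14 and 0.15 with a median of 0.59. None of these 6 genes was a DEG in edgeR, and those like *Plaur* had at most 8.85 CPM in any library. Of those like *F3*, *Rd3* and *Mrgpre* had at most 3.49 and 3.59 CPM, and *Rin1* had 15.3 to 38.4 CPM.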

How the data were processed

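Messenger RNA from 6 lungs, 1 library per mouse, was sequenced for the study. The table deposited by the authors holds the number of reads (counts) for each gene, neither normalized nor pooled. Per the labels, the reads were processed on mm10 (GRCm38), with DESeq2 among the tools. The aligner, the counting tool and the use of strand are not given in the sources used here. Of the 54532 genes, 53462 had the same coordinates and strand in GENCODE M21, and for the 9 members the deposited gene length equalled the bases covered by their exons there.

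The members and gene lists were chosen with earlier results of these data known. The main test was the robust quasi-likelihood test of edgeR 4.0.16 under R 4.3.3, after filterByExpr and TMM scaling, with Benjamini-Hochberg adjustment over 16568 genes. DESeq2 1.42.0 was applied to the same genes. Log2 values for single libraries used a prior count of 2. Intervals of fold changes are 95% intervals from the edgeR fit. Libraries of one genotype differed by more than sampling noise (chi-square per degree of freedom from 19.2 to 62.9) and were used as 3 replicates. The procedure was tested on simulated data. Values of 1 further listed gene are not reported here. Fits were repeated with a library left out, with a covariate for sex-linked expression, with a block for the replicate number, with RLE scaling and with another filter on low counts (none, or 10 in every library). They were also called without the fold change threshold. The longest transcript as a length was an alternative chosen after seeing the data. Genes were named if they were members, if they were listed and had an unadjusted *p*-value under 0.05, if they led their role in level per length, or if they were most like *F3* or *Plaur*. The hepatocyte genes, the ratios and the genes of the closing section were chosen after their values were seen. Stretches of 31 bases shared with other genes made up at most 0.779% of a member's longest transcript.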

Additional observations from a re-analysis of the deposited data

How the results depend on the processing

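With 3 lungs per genotype, the spread between mice set the width of the intervals. The members gave 0 DEGs in edgeR and under every alternative except without a filter on low counts, where 1 (*Plaur*) passed at 0.83 on the log2 scale (adjusted *p* = 0.00508). The number of DEGs among all genes was 28, 522 without that filter, 272 with DESeq2 and 4 to 22 with a library left out, lowest without GR+/+ replicate 2. At an unadjusted *p*-value under 0.05 the members numbered 2, and 1 to 2 with a library left out, 1 each without GR+/+ replicate 1, GR+/+ replicate 3 and GRdim/dim replicate 2. With the covariate for sex-linked expression they numbered 3 (*F3*, *Plau* and *Plaur*). The other listed genes numbered 3, then 8 without a filter and 1 with the covariate for sex-linked expression, and 0 to 4 with a library left out (0 without GR+/+ replicate 3 or GRdim/dim replicate 1). Of these genes 1 was a DEG without a filter (*Kng1*, named after its values were seen), with counts in GR+/+ replicate 3 alone.

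Of 108 fold changes of members under an alternative, 94 kept their direction and call and 13 had the other sign, 12 of them with a library left out. The exception was *Tfpi*, at -0.017 with the covariate for sex-linked expression. With a library left out the log2 fold changes ranged from -0.23 to 0.24 for *Thbd*, -0.10 to 0.46 for *Procr*, -0.078 to 0.079 for *Tfpi*, -0.24 to 0.11 for *Plat*, -0.76 to 0.086 for *Plau* and -0.65 to 0.21 for *F13a1*. *F3* (-0.88 to -0.37), *Vwf* (-0.38 to -0.08) and *Plaur* (0.64 to 1.04) kept their sign under all alternatives. All 72 alternative means of a member's CPM moved by less than 1 SD. For those with a library left out this was fixed in advance, because leaving out 1 of 3 values cannot move a mean that far. The others came from RLE scaling. With the longest transcript, the level per length moved by more than 1 SD for *F3* (110.4), *Tfpi* (9.54), *Vwf* (76.7), *Plat* (15.5) and *F13a1* (14.8 RPKM). The main fit did not pair the libraries by replicate number. Same-numbered libraries deviated from their group means with correlations of 0.22, 0.04 and -0.05, against -0.27 to 0.19 for those with different numbers. The replicate block gave 34 DEGs among all genes and 0 among the members. With this block *F3* had a log2 fold change of -0.65 (unadjusted *p* = 0.00568 and adjusted *p* = 0.246 in edgeR). The cause of these changes was not tested.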

Other observations

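Some genes of the system that are known mainly from the liver had their highest level in GR+/+ replicate 3, the library with the most hepatocyte transcripts. The fibrinogen chains *Fga* and *Fgb* were at 2.06 and 3.14 CPM there (65 and 99 counts) and at most at 0.360 and 0.258 CPM in any other library. *Kng1*, which encodes kininogen, was at 2.06 CPM there (65 counts) with 0 counts in the others. The third fibrinogen chain, *Fgg*, was less set apart, with 1.68 CPM in that library and 0.179 to 1.16 CPM in the others. *F2*, the gene of prothrombin, was at 0.953 CPM against at most 0.538 CPM elsewhere, and plasminogen (*Plg*) at 0.318 CPM against at most 0.239 CPM, from at most 30 and 10 counts. Of these genes only *Fgg* had enough reads to be tested (adjusted *p* = 0.991 from edgeR). Other factors that the liver makes had reads in every library, among them *Pros1*, the gene of protein S, at 124.7 to 177.8 CPM.

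*F7*, *F10* and *Proz* follow each other on the plus strand of chromosome 8, from 13026034 to 13076026. *F7* and *Proz* had log2 fold changes of -0.64 and -0.85, while *F10*, which lies between them, had 10.1 ± 1.81 CPM in GR+/+ and 11.3 ± 1.93 CPM in GRdim/dim lungs (SD, n = 3 each) and differed by 0.16 on the log2 scale (SE 0.25, adjusted *p* = 0.912 from edgeR). The difference between these genes was not tested. *Cldn5*, an endothelial junction gene, had 369.7 to 441.5 CPM in GR+/+ and 535.4 to 1119 CPM in GRdim/dim libraries (adjusted *p* = 0.288 from edgeR and 0.0338 from DESeq2), while the endothelial genes *Pecam1* (549 to 789 and 448 to 568 CPM) and *Cdh5* (529 to 977.5 and 565 to 788 CPM) overlapped between genotypes. *Pf4*, a platelet chemokine gene, had 4.48 to 6.45 CPM in GR+/+ and 7.27 to 17.8 CPM in GRdim/dim libraries (adjusted *p* = 0.244 from edgeR and 0.0172 from DESeq2). The summed platelet markers overlapped. Of the 11 platelet markers tested in edgeR, *Pf4* included, 7 were estimated higher and 4 lower in GRdim/dim lungs. Among the lower ones, *Clec1b* differed by -0.71 and *Tubb1* by -0.81 on the log2 scale. Whether the number of platelets differed was not tested.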
